A study of Mus musculus with 6 samples.

Results

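The small nuclear ribonucleoprotein (snRNP) proteins of the spliceosome were examined in RNA-seq of STRA8+ germ cells from mouse testes with and without *Srsf1*. The genes were chosen by name. Protein-coding genes whose symbol begins with *Sf3a*, *Sf3b*, *Prpf*, *Snrnp*, *U2af* or *Lsm* and a digit, or with *Snrp* and a letter, were taken, which gave 57 of the 54532 genes in the table and 57 of its 22046 protein-coding genes. The name rule also holds a few proteins that act outside the snRNPs, among them LSM1, LSM12, LSM14A and LSM14B. *Snrpert*, 1 processed pseudogene whose name fits, was left out.

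The libraries comprised 3 controls, with the genotype Cre, and 3 *Srsf1* conditional knockouts (cKO), and the cells of both groups were labelled as STRA8+ germ cells of the testis. Neither the Cre driver and the floxed allele, nor the age, the strain, the way the cells were isolated or the number of animals behind a library, is given in the labels. The p-values therefore measure the spread between these libraries, which may be technical. Levels are in FPKM, the fragments of a gene divided by its length in kilobases and by the size of the library.

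*Srsf1*, the targeted splicing factor gene, was at 84.7, 45.2 and 51.9 FPKM in the control libraries and at 5.08, 4.94 and 5.17 FPKM in the cKO libraries, which left 8.36% of the control mean (log2 fold change -3.29, SE 0.22, limma adjusted p = 5.6e-05). Between 15364511 and 17310353 fragments per control library and between 14447887 and 15326722 per cKO library were counted on genes. *Stra8* was at 222.1 to 261.7 FPKM in control and at 242.1 to 312.7 FPKM in cKO cells. Markers of later germ cells separated the groups. All 5 pachytene spermatocyte markers and all 5 spermatid markers fell, with summed levels of 473.4 to 623.8 and 1559 to 5320 FPKM in control, where replicate 2 stood apart at 5320 FPKM with the others at 1658 and 1559 FPKM, against 4.71 to 6.30 and 4.19 to 4.72 FPKM in cKO libraries. The summed levels of 5 differentiating spermatogonial markers (466.8 to 494.4 against 448.5 to 523.4 FPKM) and of 5 early prophase markers (495.4 to 651.2 against 519.0 to 671.4 FPKM) overlapped between the groups, although *Dmrtb1* and *Spo11* fell. Of 5 markers of undifferentiated spermatogonia, *Id4* fell, *Nanos2* was at no more than 0.131 FPKM, and the sums overlapped (17.8 to 21.9 against 17.3 to 22.1 FPKM). The Sertoli cell sum was 13.6 to 20.5 FPKM in control libraries and 34.7 FPKM in cKO replicate 1, the highest of the cKO range that began at 12.7 FPKM. Leydig (2.95 to 14.0 against 6.34 to 10.7 FPKM), peritubular (1.43 to 4.33 against 3.64 to 4.29 FPKM) and macrophage and blood sums (4.61 to 7.99 against 4.53 to 6.23 FPKM) overlapped. None of the somatic markers tested passed, which were 5 of 5 for Sertoli cells, 2 of 5 for Leydig cells, 1 of 3 for peritubular cells and 2 of 4 for macrophages and blood, and the others were under the filter. In such bulk samples, fewer cells of a type and less RNA per cell cannot be told apart. The part of the pachytene and spermatid markers in the values below was not tested.

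The spliceosome removes introns from pre-mRNA. Its snRNPs each pair a small nuclear RNA with a ring of 7 related proteins, the Sm proteins on U1, U2, U4 and U5 or the LSm proteins on U6, and with proteins of their own. U1 recognises the 5′ splice site, U2 with its SF3A and SF3B complexes takes the branch point after the U2AF heterodimer has bound the 3′ splice site, and the U4/U6.U5 tri-snRNP then joins and is rearranged into the active enzyme. SRSF1 is a serine and arginine rich protein that binds exons and helps U1 and U2AF to find splice sites. Subunits of these particles are made in every cell that splices, and male germ cells carry an unusually diverse set of spliced transcripts.

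The snRNP genes were expressed at high levels and changed little. Control means ran from 0.162 to 136 FPKM with a median of 26.8 FPKM, against a median of 7.27 FPKM over all genes tested, and 53 of the 57 were above 10 FPKM. Of 56 members tested, 13 rose and 6 fell in the cKO cells (limma, Benjamini-Hochberg adjusted p at most 0.05 over 15451 genes), and 37 did not pass. In percent, 23.2% rose and 10.7% fell, beside 11.8% and 22.2% of all genes tested. With a library left out, 6 to 15 members rose and 1 to 6 fell. The falls numbered 1 without control replicate 1, cKO replicate 1 or cKO replicate 3, 2 without control replicate 3 and 3 without cKO replicate 2, and the rises numbered 7 without control replicate 3, 8 without cKO replicate 1 or 2 and 6 without cKO replicate 3. Over all genes, 1821 rose and 3437 fell with all libraries, and 1068 rose and 2871 fell without control replicate 1. The numbers were 1767 and 3510 without control replicate 2, 1079 and 2943 without control replicate 3, and 1172 and 2944 without cKO replicate 1. The log2 fold changes of the members lay between -0.52 and 0.54, and 0 of the 56 differed by more than 1 on the log2 scale, against 14.4% of all genes. The median change was 0.12, against -0.0082 over all genes, and 41 members (73.2%) were above 0, against 49.2% of all genes. Quantile normalisation raised the median of all genes to 0.21 and that of the members to 0.22, which left a difference of 0.0070 in place of 0.13, and counted 26 rises and 1 fall among the members. Over all 15451 genes it counted 5164 rises and 2527 falls.

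**Figure D1:**
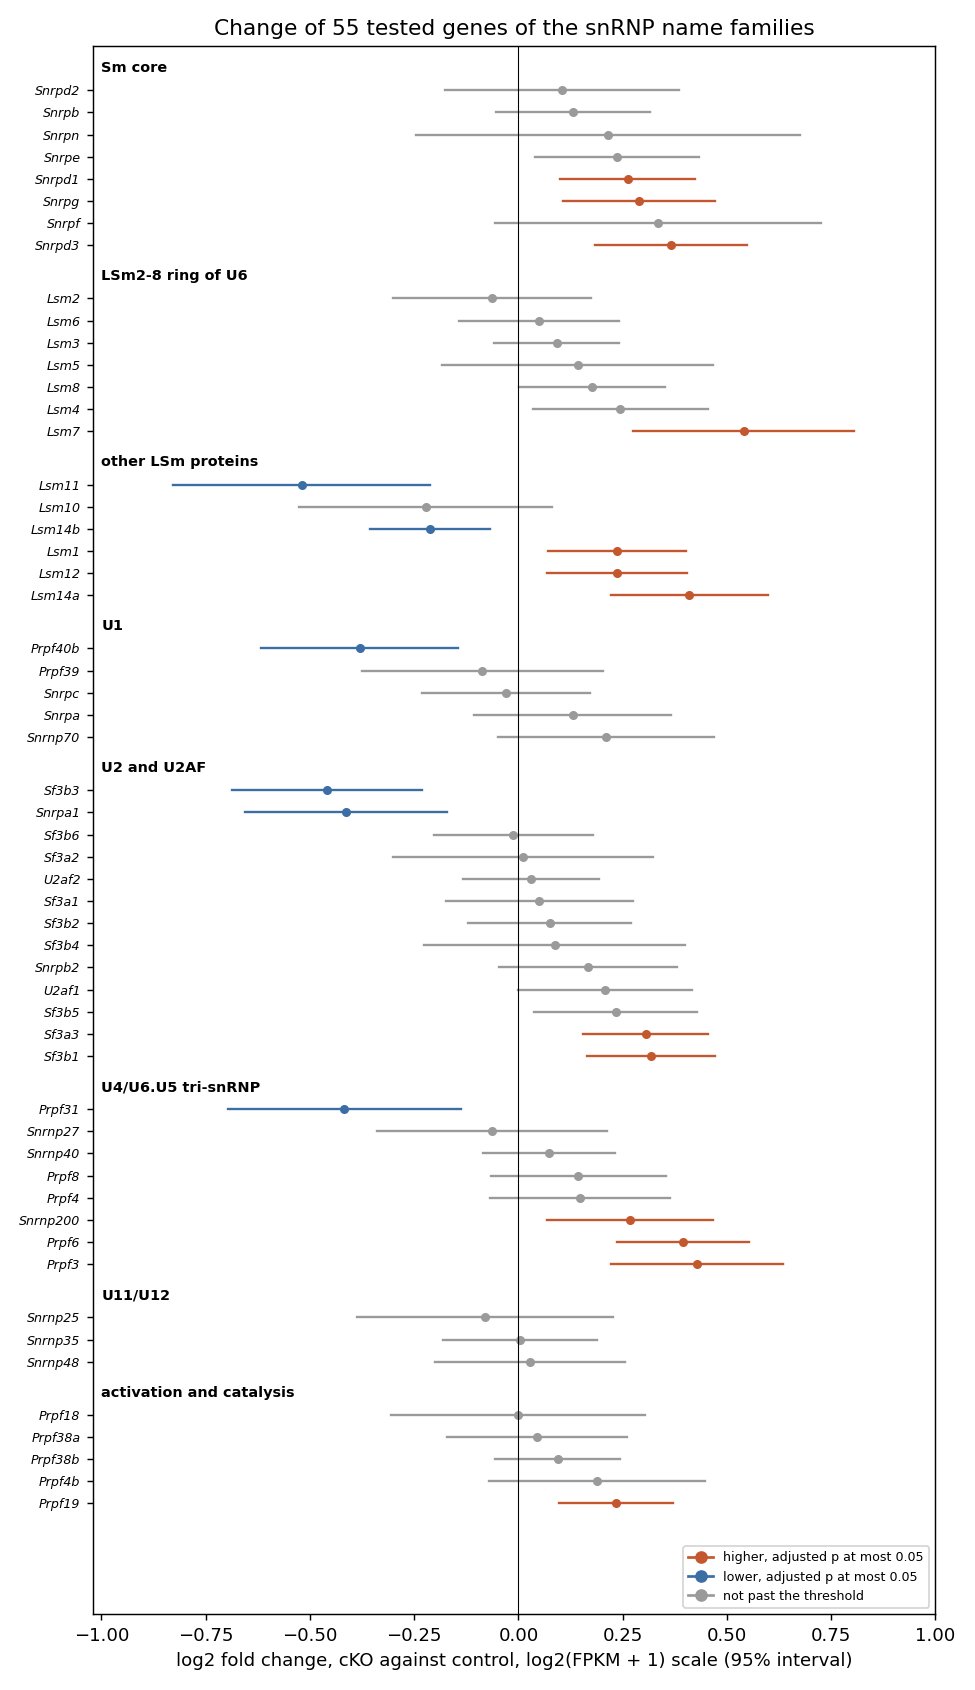
Log2 fold change of 55 of the 56 tested genes, cKO against control on the log2(FPKM + 1) scale (x axis), by particle or set of genes (y axis), with 95% confidence intervals from limma, coloured by call. The 13 rises and 6 falls all lie between -0.52 and 0.54.

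In 25 members (44.6%) the groups did not overlap, 19 with the cKO libraries higher and 6 with them lower, beside 50.4% of all genes tested. The 50.4% was not split by direction, so the 19 and the 6 cannot be read against all genes. All 19 members that passed the test were among them. The other 6, with the cKO libraries higher in each, were *Lsm3*, *Lsm4*, *Lsm8*, *Snrpe*, *Sf3b5* and *Prpf38b*. At an unadjusted limma p under 0.05, 23 members passed. The number over all genes at that threshold was not counted, so nothing is read from the 23. The median coefficient of variation among the 3 libraries of a group was 7.78% in control and 6.21% in cKO cells.

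**Figure D2:**
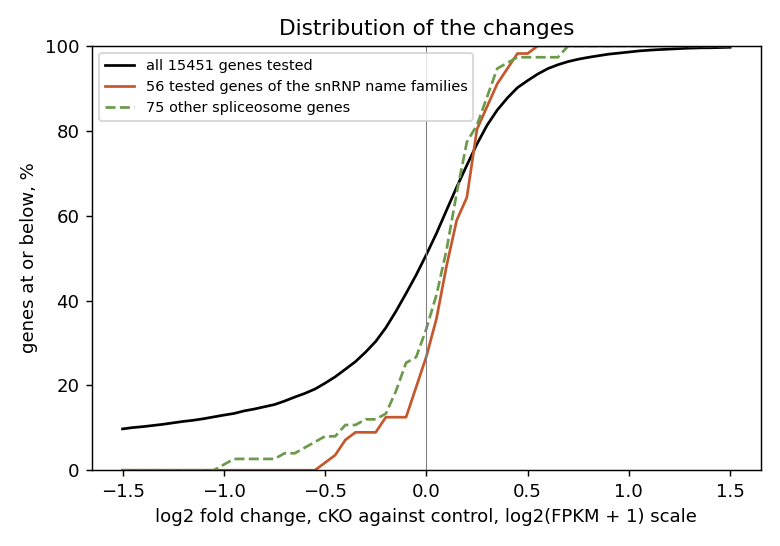
Share of genes, in percent (y axis), at or below each log2 fold change on the log2(FPKM + 1) scale (x axis), for the 56 tested members, 75 other spliceosome genes and all 15451 genes tested. The member curve spans -0.52 to 0.54 and has its median at 0.12, against -0.0082 for all genes, a gap of 0.13 that is 0.0070 under quantile normalisation.

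For 6 of the 19 members (*Lsm7*, *Prpf3*, *Lsm14a*, *Prpf6*, *Snrpd3* and *Sf3b3*) the call held in all 15 alternative analyses. The stretch before a RefSeq transcription start is shown for the rise and the fall among these for which over 200 bases without an annotated exon of any gene could be shown. The sequences are of RefSeq (GRCm38.p6), written 5′ to 3′ along the gene, and lie at chr2:181601069-181601315 on the plus strand for *Prpf6*, which ends 3 bases before a RefSeq start, and at chr8:110846813-110847023 on the minus strand for *Sf3b3*, which ends 9 bases before one. In GENCODE M21 a transcript of *Prpf6* begins further upstream, at 181591868, so its printed stretch lies inside that gene model, before an inner start. Capitals mark matches to the motifs searched, each on either strand and at any distance from the start. They are GGGCGG (the GC box of the Sp family) in *Prpf6*, and CCAAT (the NF-Y box) and TATAAA (the letters of the TATA box) in *Sf3b3*.
Prpf6, before an inner start: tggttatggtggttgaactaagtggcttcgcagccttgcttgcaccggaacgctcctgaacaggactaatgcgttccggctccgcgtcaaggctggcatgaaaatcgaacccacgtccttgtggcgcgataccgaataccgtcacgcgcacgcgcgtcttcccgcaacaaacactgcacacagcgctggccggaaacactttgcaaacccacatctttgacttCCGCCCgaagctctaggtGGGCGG
Sf3b3, before the start: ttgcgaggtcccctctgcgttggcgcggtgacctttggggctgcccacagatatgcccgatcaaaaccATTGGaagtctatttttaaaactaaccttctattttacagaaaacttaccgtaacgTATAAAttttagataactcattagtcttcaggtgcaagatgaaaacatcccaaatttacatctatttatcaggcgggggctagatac
The *Prpf6* stretch, of 247 bases, held the GC box at 2 places and had a GC content of 57.9%. The *Sf3b3* stretch, of 211 bases, had a GC content of 41.7%, and the rest of its window held exon bases of the neighbouring gene *Cog4*.

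RefSeq promoter windows were matched for 46 of the 57 members, with 57 windows of 250 bases. The ETS motif CCGGAAG was in 28.1% of them, against 6.91% of all 32851 windows, and the GC box was in 52.6%, against 32.7%. For the CCAAT box the shares were 38.6% and 33.9%. The NRF1 motif GCGCATGC was in 8.77% of member windows and 2.26% of all, the CRE motif TGACGTCA in 5.26% and 1.55%, and the YY1 motif AAGATGGCG in 1.75% and 0.606%. The letters TATAAA, counted wherever they lay in the window, were in 7.02% and 12.4%. The median GC content was 57.2% in member windows and 52.4% in all, and the motif shares were not adjusted for it. Among windows of members that rose, 5 of 13 held the ETS motif, 6 the GC box and 4 the CCAAT box. Among those of members that fell the numbers were 1, 4 and 5 of 7. A match is a description of the letters and not of binding.

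The Sm core is the ring of proteins that the major and minor spliceosomal snRNAs share, apart from U6 and its minor counterpart. All 8 Sm genes had log2 fold changes above 0 (median 0.25), 3 rose and 0 fell, and the summed level was 532.0, 586.3 and 509.6 FPKM in control and 627.4, 664.0 and 617.9 FPKM in cKO libraries, so that the groups were apart. *Snrpd3*, which encodes SmD3, was at 24.6, 24.9 and 22.5 FPKM in control and at 30.8, 33.4 and 29.6 FPKM in cKO cells (log2 fold change 0.37, SE 0.077, adjusted p = 0.0108). Every cKO library was above every control library, and the call held when any single library was left out. *Snrpd1*, for SmD1 of the same ring, was at 106.2, 101.8 and 98.9 FPKM against 116.1, 128.6 and 124.1 FPKM, a rise of 0.26 on the log2 scale. *Snrpg*, for SmG, was at 82.6, 89.9 and 77.6 FPKM against 98.3, 106.6 and 101.2 FPKM, a rise of 0.29. Both rises were lost (adjusted p up to 0.0902 for each) when control replicate 3, cKO replicate 2 or cKO replicate 3 was left out, and that of *Snrpg* also without control replicate 1 or cKO replicate 1.

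The other Sm genes did not pass the test with all libraries. *Snrpe* was at 80.5, 69.3 and 72.3 FPKM against 89.9, 91.0 and 81.1 FPKM (log2 fold change 0.24, 95% confidence interval 0.039 to 0.43). It passed in limma fits under median-of-ratios scaling (adjusted p = 0.0445), FPKM over the sum of fragments (0.0195) and quantile normalisation (0.0167). It did not with limma-voom (0.0766) or without the trend on intensity (0.12). *Snrpd2* had a log2 fold change of 0.10 with an interval of -0.18 to 0.38, which was 0.031 without control replicate 1, 0.047 without control replicate 3 and 0.24 without control replicate 2, where it passed the test (adjusted p = 0.0439). *Snrpf* was at 58.7, 94.0 and 69.8 FPKM in control and 89.6, 99.1 and 87.8 FPKM in cKO cells (log2 fold change 0.34, 95% confidence interval -0.056 to 0.73). Its change was 0.18 without control replicate 1 and 0.52 without control replicate 2, where it passed the test (adjusted p = 0.0123). Of the *Snrpf* exon bases, 85.4% also lie in exons of *Ccdc38* or *4933408J17Rik*, and *Ccdc38* was at 22.9, 18.2 and 19.8 FPKM in control and at 0.384, 0.286 and 0.458 FPKM in cKO libraries. Whether reads were counted by strand is not given, so the reads of these genes cannot be told apart.

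*Snrpb* encodes SmB and SmB′, and *Snrpn* a close relative that is imprinted and abundant in brain. *Snrpb* was at 122.1, 128.9 and 109.4 FPKM in control and 132.7, 133.2 and 128.1 FPKM in cKO cells (log2 fold change 0.13, SE 0.078, adjusted p = 0.24). *Snrpn* was at 1.27, 2.48 and 1.61 FPKM against 1.86, 2.63 and 2.10 FPKM (0.22, SE 0.19, adjusted p = 0.43). Its change was 0.079 without control replicate 1 and 0.39 without control replicate 2. Under quantile normalisation it was 0.59 and passed (limma adjusted p = 0.0424). *Snrpn* made up 1.45% ± 0.430 (SD, n = 3) of the summed FPKM of the pair in control and 1.64% ± 0.277 in cKO cells, with overlapping libraries. In both groups the STRA8+ cells held mostly *Snrpb*. Of the *Snrpn* exon bases, 34.1% lie in exons of other annotated genes.

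The heteroheptameric ring of LSM2 to LSM8 binds the end of U6 snRNA. Of its 7 genes, 1 rose and 0 fell, and the summed level was 278.8, 309.9 and 287.7 FPKM in control and 356.4, 332.6 and 337.7 FPKM in cKO libraries, without overlap. *Lsm7* was at 37.7, 50.1 and 41.2 FPKM in control and at 66.3, 60.5 and 60.8 FPKM in cKO cells, the largest rise of all members (log2 fold change 0.54, SE 0.11, adjusted p = 0.0100). Its groups did not overlap, and the level was 1.46 times the control mean. *Lsm4*, the most abundant member in control cells, was at 125.8, 151.6 and 130.5 FPKM against 166.3, 153.8 and 162.5 FPKM (0.24, adjusted p = 0.0726, and 0.0178 without control replicate 2). The adjusted p of *Lsm4* was 0.20 without control replicate 1, 0.19 without control replicate 3 and 0.18 without cKO replicate 1. *Lsm8*, the subunit that distinguishes the nuclear U6 ring from the cytoplasmic one, was at 18.5, 17.7 and 18.7 FPKM against 19.4, 21.8 and 21.3 FPKM (0.18, adjusted p = 0.11). Neither passed the test with all libraries. *Lsm2*, *Lsm3*, *Lsm5* and *Lsm6* did not pass either, with control means of 34.9, 24.5, 23.0 and 12.5 FPKM and cKO means of 33.5, 26.2, 25.3 and 12.9 FPKM.

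**Figure D3:**
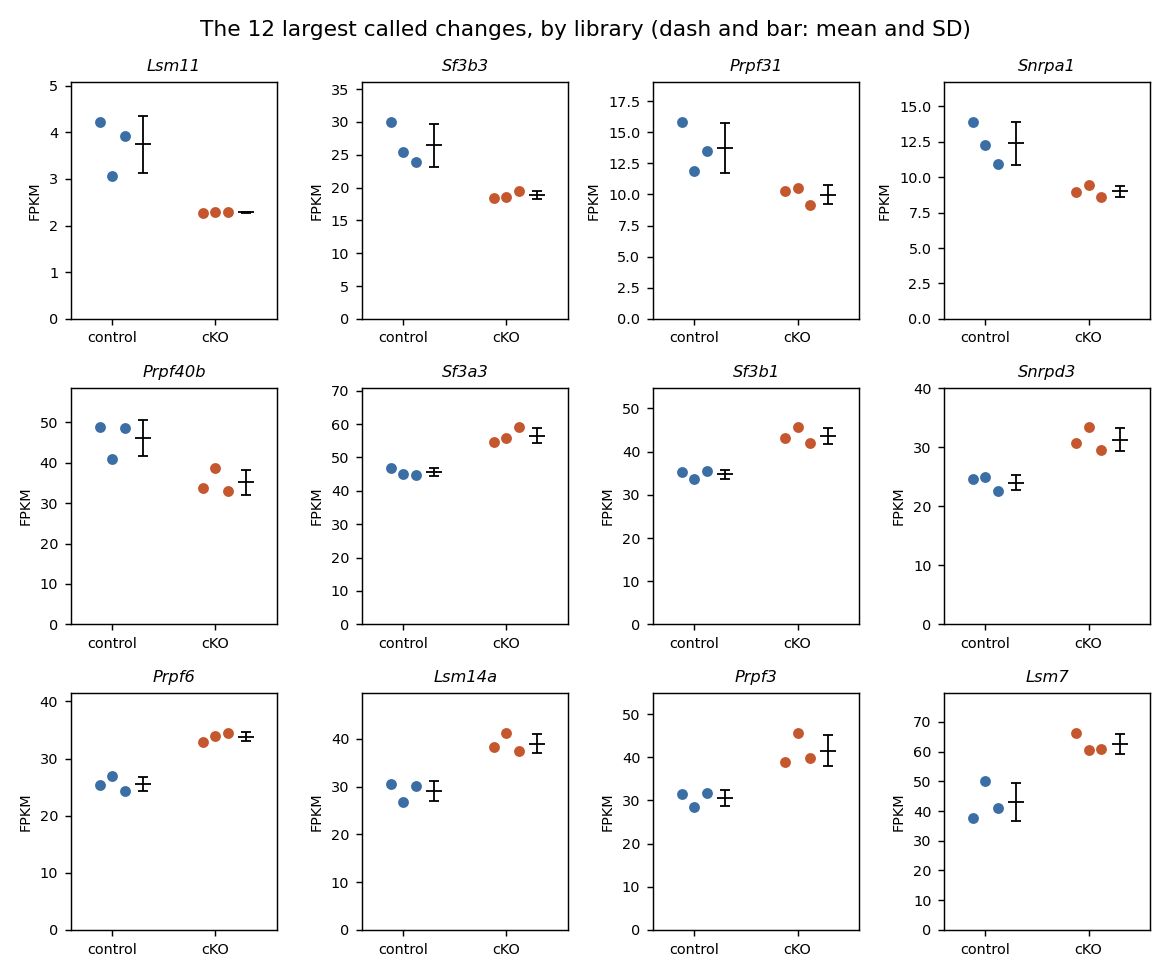
FPKM of each library (y axes from 0) for the 12 members with the largest change among those past the threshold, control and cKO (x axes), with a dash and bar for the mean and SD of each group. The 3 cKO libraries lie on one side of the 3 control libraries in each panel, at 66.3, 60.5 and 60.8 FPKM against 37.7, 50.1 and 41.2 FPKM for *Lsm7*.

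The LSm proteins outside the U6 ring went both ways, with 3 rises and 2 falls among 6 genes. *Lsm1* encodes the subunit that replaces LSM8 in the cytoplasmic ring, which promotes decapping and decay of mRNA. It was at 16.98, 18.6 and 18.0 FPKM in control and 20.5, 21.5 and 21.6 FPKM in cKO cells, a rise of 0.24 on the log2 scale. *Lsm12* was at 29.5, 28.2 and 31.7 FPKM against 34.8, 36.6 and 34.3 FPKM, also a rise of 0.24. The *Lsm12* rise was lost whichever library was left out, and the *Lsm1* rise was lost without any library but control replicate 2 (adjusted p up to 0.104 and 0.131). LSM10 and LSM11 replace SmD1 and SmD2 in the U7 snRNP, which trims histone mRNA ends. *Lsm11* was at 4.22, 3.06 and 3.92 FPKM in control and 2.28, 2.30 and 2.28 FPKM in cKO cells, the largest fall of all members (log2 fold change -0.52, SE 0.13, adjusted p = 0.0213). The fall was kept without control replicate 2 and lost without any of the other 5 libraries (adjusted p up to 0.30 over the alternatives). The log2 fold change of *Lsm11* was -0.44 without control replicate 1, -0.63 without control replicate 2 and -0.20 under quantile normalisation. *Lsm10* was at 8.95, 12.0 and 9.62 FPKM against 8.17, 7.97 and 9.56 FPKM (-0.22, SE 0.13, adjusted p = 0.22), with overlapping groups. Its change was -0.11 without control replicate 2, -0.30 without control replicate 1 and -0.0045 under quantile normalisation. *Lsm11* was 27.1% ± 6.11 (SD, n = 3) of the summed FPKM of the pair in control and 21.2% ± 1.65 in cKO cells, which overlapped. By library the share was 32.1%, 20.3% and 29.0% in control and 21.8%, 22.4% and 19.3% in cKO cells, so its difference depends on control replicate 2.

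LSM14A and LSM14B are paralogs that bind mRNA in cytoplasmic granules and repress its translation, and LSM14B is prominent in germ cells. *Lsm14a* was at 30.5, 26.7 and 30.2 FPKM in control and 38.4, 41.3 and 37.4 FPKM in cKO cells (log2 fold change 0.41, SE 0.079, adjusted p = 0.0075). *Lsm14b* was at 79.9, 75.8 and 75.9 FPKM against 66.3, 64.8 and 68.5 FPKM (-0.21, SE 0.061, adjusted p = 0.0352). The paralogs therefore changed in opposite directions, and *Lsm14b* fell from 72.6% ± 1.19 (SD, n = 3) to 63.0% ± 1.82 of their summed FPKM, with the libraries of the groups apart. *Lsm14b* kept its call only without control replicate 2 among the fits that left out 1 library, and its adjusted p reached 0.16 over the alternatives.

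Of 6 genes of the U1 snRNP and its associated proteins, 0 rose and 1 fell. The proteins of *Snrnp70* and *Snrpa* bind stem loops of U1 snRNA, that of *Snrpc* steadies its pairing with the 5′ splice site, and PRPF39 and PRPF40B are homologs of yeast U1 proteins. *Snrnp70* was at 83.6, 73.9 and 86.5 FPKM in control and 85.5, 108.3 and 89.8 FPKM in cKO cells (log2 fold change 0.21, adjusted p = 0.18). Its change was 0.11 without cKO replicate 2 and 0.28 without cKO replicate 1. *Snrpa* had a log2 fold change of 0.13 (95% confidence interval -0.11 to 0.37), and *Snrpc* and *Prpf39* had control means of 17.4 and 8.09 FPKM and cKO means of 17.02 and 7.60 FPKM. None of these 4 passed the test. *Prpf40b* was at 48.8, 41.0 and 48.6 FPKM in control and 33.8, 38.8 and 32.9 FPKM in cKO cells (-0.38, SE 0.10, adjusted p = 0.0252). The call was lost without control replicate 1 or 3 or cKO replicate 1 or 3 (adjusted p up to 0.0933 over the alternatives).

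The U2 snRNP and U2AF gave 2 rises and 2 falls among 13 genes tested of 14. SF3B1 holds the branch point in SF3B, and SF3B3 is a scaffold of the same complex. *Sf3b1* was at 35.3, 33.6 and 35.5 FPKM in control and 43.3, 45.6 and 42.0 FPKM in cKO cells (log2 fold change 0.32, SE 0.065, adjusted p = 0.0096). *Sf3b3* was at 30.02, 25.4 and 23.8 FPKM against 18.5, 18.6 and 19.5 FPKM (-0.46, SE 0.096, adjusted p = 0.0106). These subunits of a single complex thus passed the test in opposite directions, and both calls held when any single library was left out. Within a library, where no scaling between libraries enters, *Sf3b3* was 0.850, 0.757 and 0.672 times *Sf3b1* in control and 0.426, 0.408 and 0.465 times in cKO cells. The other SF3B genes did not pass with all libraries. *Sf3b5* was at 12.1, 14.1 and 12.3 FPKM against 15.5, 14.8 and 15.5 FPKM (0.23, adjusted p = 0.0693, and 0.0262 without control replicate 2), and *Sf3b2*, *Sf3b4* and *Sf3b6* had control means of 86.6, 44.2 and 25.3 FPKM and cKO means of 91.4, 47.3 and 25.0 FPKM. The adjusted p of *Sf3b5* was 0.18 without control replicate 1 and 0.19 without control replicate 3.

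SF3A, the other U2 complex, contributed 1 rise. *Sf3a3* was at 46.9, 44.9 and 44.8 FPKM in control and 54.8, 55.8 and 59.1 FPKM in cKO cells (log2 fold change 0.31, SE 0.063, adjusted p = 0.0099). The groups did not overlap, and the call was lost only without cKO replicate 3 among the fits that left out 1 library (adjusted p up to 0.0612 over the alternatives). *Sf3a1* and *Sf3a2* did not pass, with control means of 39.2 and 30.8 FPKM and cKO means of 40.7 and 31.4 FPKM.

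The proteins of *Snrpa1* and *Snrpb2* form a heterodimer on U2 snRNA. *Snrpa1* was at 13.9, 12.3 and 10.9 FPKM in control and 8.97, 9.43 and 8.63 FPKM in cKO cells (log2 fold change -0.41, SE 0.10, adjusted p = 0.0205). *Snrpb2* was at 26.2, 21.3 and 24.2 FPKM against 26.7, 27.8 and 26.0 FPKM (0.17, adjusted p = 0.20), with overlapping groups. Its change was 0.089 without control replicate 2 and 0.23 without control replicate 1. The ratio of *Snrpa1* to *Snrpb2* within a library was 0.520 ± 0.0642 (SD, n = 3) in control and 0.335 ± 0.00338 in cKO cells. The *Snrpa1* fall was lost without control replicate 1, cKO replicate 1 or cKO replicate 3 (adjusted p up to 0.13 over the alternatives). U2AF recognises the end of the intron through its small and large subunits. *U2af1*, for the small subunit, was at 78.3, 71.7 and 65.6 FPKM in control and 77.3, 84.1 and 87.8 FPKM in cKO cells (0.21, SE 0.088, adjusted p = 0.11). *U2af2*, for the large one, had means of 67.6 and 69.1 FPKM. *U2af1l4*, a relative of *U2af1*, was the only member under the filter, at 0.110, 0.236 and 0.140 FPKM in control and 0.461, 0.165 and 0.119 FPKM in cKO libraries, and was not tested. It was 0.227% ± 0.0949 (SD, n = 3) of the summed FPKM of the pair in control and 0.308% ± 0.249 in cKO cells, which overlapped.

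In the U4/U6.U5 tri-snRNP, 3 of 8 genes rose and 1 fell, and the summed level was 315.1, 284.3 and 298.7 FPKM in control and 344.1, 344.8 and 334.6 FPKM in cKO libraries, without overlap. PRPF3 and PRPF31 are proteins of U4/U6, PRPF6 bridges it to U5, SNRNP200 is the helicase that unwinds U4 from U6, and PRPF8 lies at the catalytic centre. *Prpf3* was at 31.5, 28.4 and 31.8 FPKM in control and 39.0, 45.7 and 39.9 FPKM in cKO cells (log2 fold change 0.43, SE 0.087, adjusted p = 0.0093). *Prpf6* was at 25.3, 26.9 and 24.4 FPKM against 33.0, 34.0 and 34.5 FPKM (0.39, SE 0.067, adjusted p = 0.0044). Both rises held in every alternative. *Prpf31* was at 15.8, 11.9 and 13.5 FPKM against 10.2, 10.5 and 9.13 FPKM (-0.42, SE 0.12, adjusted p = 0.0329). Its call was kept without control replicate 2 and lost without any of the other 5 libraries (adjusted p up to 0.17 over the alternatives). Within libraries, *Prpf31* was 0.448 ± 0.0475 (SD, n = 3) times *Prpf3* in control and 0.241 ± 0.0189 times in cKO cells, and 0.540 ± 0.0925 against 0.295 ± 0.0265 times *Prpf6*. Exons of *Gm15927* cover 18.1% of the *Prpf31* exon bases. *Gm15927* itself fell, from 3.22, 2.64 and 2.91 FPKM to 1.31, 1.39 and 1.198 FPKM, and its part in the *Prpf31* value was not tested.

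*Snrnp200* was at 75.2, 63.3 and 72.3 FPKM in control and 83.5, 89.1 and 81.2 FPKM in cKO cells, a rise of 0.27 on the log2 scale that was lost whichever library was left out (adjusted p up to 0.12). *Prpf8* was at 93.4, 85.7 and 87.3 FPKM against 108.6, 88.9 and 98.0 FPKM (0.14, adjusted p = 0.25). Its change was 0.071 without cKO replicate 1 and 0.18 without control replicate 1. *Prpf4*, for the partner of PRPF3, had a log2 fold change of 0.15 with a 95% confidence interval of -0.067 to 0.36. Neither passed the test. *Snrnp40*, a WD40 protein of U5, and *Snrnp27* had control means of 35.2 and 23.8 FPKM and cKO means of 37.1 and 22.8 FPKM, and did not pass.

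**Figure D4:**
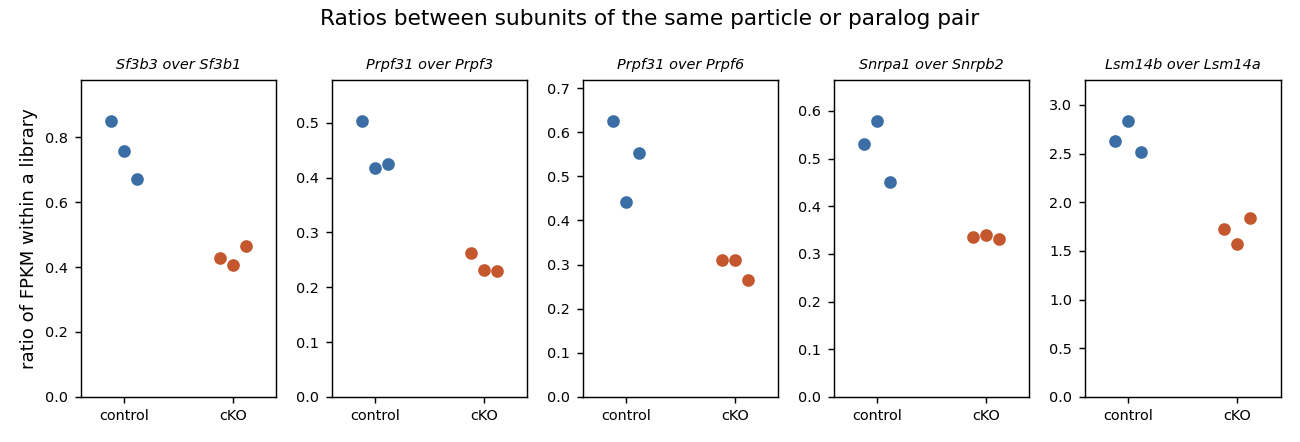
Ratio of the FPKM of 2 subunits within each library (y axes from 0), for control and cKO libraries (x axes), for the 5 of 9 ratios computed whose groups did not overlap. *Sf3b3* over *Sf3b1* was 0.759 on average in control and 0.433 in cKO libraries.

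Of the 9 ratios computed within libraries, 5 had groups apart, and several of these were chosen after the values of the genes had been seen. The ratios are therefore given as descriptions without a test, and 3 libraries against 3 could give no exact two-sided permutation p below 0.1. The ratio of *Lsm14b* to *Lsm14a* went from 2.66 to 1.71. The ratios of *Lsm11* to *Lsm10*, *Lsm7* to *Lsm8*, *Snrpn* to *Snrpb* and *U2af1* to *U2af2* overlapped between the groups.

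The minor spliceosome, which removes a small class of introns, was represented by the U11/U12 proteins *Snrnp25*, *Snrnp35* and *Snrnp48*. None passed the test, and their summed level was 56.1, 60.7 and 58.2 FPKM in control and 59.3, 58.9 and 53.3 FPKM in cKO libraries, with overlapping groups. Among 5 genes of activation and catalysis, *Prpf19* rose. It encodes the ubiquitin ligase that gives its name to the complex joining at activation, and was at 37.8, 36.4 and 37.5 FPKM in control and 43.7, 44.2 and 43.9 FPKM in cKO cells, a rise of 0.23 on the log2 scale. The rise was lost without control replicate 3, cKO replicate 1 or cKO replicate 3 (adjusted p up to 0.11 over the alternatives). *Prpf38a* was at 13.8, 13.1 and 14.5 FPKM against 12.8, 15.4 and 14.8 FPKM (0.046, SE 0.091, adjusted p = 0.73). Its relative *Prpf38b* was at 21.7, 21.5 and 20.6 FPKM against 23.0, 22.3 and 22.95 FPKM (0.094, SE 0.063, adjusted p = 0.29). *Prpf38b* made up 60.6% ± 1.76 (SD, n = 3) of this pair in control and 61.4% ± 2.56 in cKO cells. *Prpf4b*, a kinase of tri-snRNP proteins, had a log2 fold change of 0.19 with an interval of -0.070 to 0.45, and *Prpf18*, a factor of the second step, had means of 12.7 and 12.6 FPKM. The change of *Prpf4b* was 0.092 without control replicate 2 and 0.28 without control replicate 1.

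**Figure D5:**
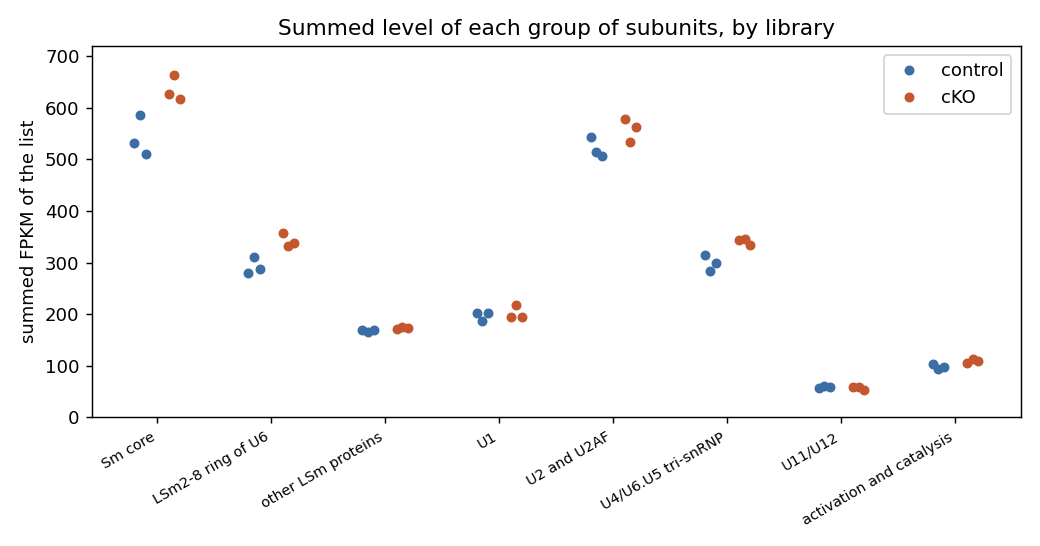
Summed FPKM of the members of each particle or set of genes (y axis from 0) in the 3 control and 3 cKO libraries, by particle or set (x axis). The groups are apart for the Sm core, at 509.6 to 586.3 against 617.9 to 664.0 FPKM, and overlap for U1, U2 with U2AF, and U11/U12.

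The members were summed in 8 sets, of which the other LSm proteins and the activation and catalysis genes are not single particles. The sums of 5 sets were higher in every cKO library than in every control library. Besides the Sm core, the U6 ring and the tri-snRNP, these were the other LSm proteins, at 164.4 to 170.0 FPKM against 170.3 to 174.5 FPKM, and the activation and catalysis genes, at 93.2 to 102.6 FPKM against 105.2 to 112.0 FPKM. The sums of U1 were 187.2 to 203.1 FPKM against 193.6 to 217.4 FPKM, and those of U2 with U2AF were 506.5 to 543.8 FPKM against 533.6 to 578.4 FPKM. The highest members decide such sums. They were taken in the deposited scaling only, and no test was made on them.

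Other genes of the same pathway, named in lists and outside the name rule, gave 8 rises (10.7%) and 7 falls (9.33%) among 75 tested of 77, with a median log2 fold change of 0.086. The share of rises was near the 11.8% of all genes tested, and that of falls was below the 22.2% of all genes, with no test of either difference. The proteins that work with U1 and U2 gave 1 rise and 1 fall among 17 genes, those of the tri-snRNP 2 rises and 0 falls among 9, those of the PRPF19 complex and the catalytic steps 4 rises and 4 falls among 27, those of the minor spliceosome 1 rise and 1 fall among 8, and those of snRNP assembly 0 rises and 1 fall among 14. The largest rises were *Ppih*, a cyclophilin of the tri-snRNP, at 11.1, 15.5 and 12.97 FPKM against 21.8, 21.5 and 22.1 FPKM (0.70, adjusted p = 0.0042), *Zrsr1* (0.69, adjusted p = 0.0121), a relative of *U2af1*, and *Aqr* (0.42, adjusted p = 0.0117), an intron-binding helicase. PPIH binds the complex of PRPF3 and PRPF4, whose genes are described above. The largest falls were *Txnl4b*, at 9.79, 9.97 and 8.31 FPKM against 3.77, 4.48 and 4.24 FPKM (-1.003, adjusted p = 0.00052), *Coil* (-0.97, adjusted p = 0.0011) and *Wbp4* (-0.75, adjusted p = 0.0027). *Coil* encodes coilin, the scaffold of the Cajal bodies in which snRNPs mature, and was at 21.5, 27.0 and 19.7 FPKM in control and 11.7, 10.7 and 10.6 FPKM in cKO cells.

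Many of the genes have transcripts annotated as products of alternative splicing that do not encode the full protein. GENCODE M21 gives a transcript targeted by nonsense-mediated decay for 20 of the 57 members (35.1%), against 20.8% of 21951 protein-coding genes, and a retained-intron transcript for 41 (71.9%), against 41.5%. These 21951 include many genes under the filter, so the shares are not of genes with like expression. Among protein-coding genes tested, 3432 had a decay target and 8880 had none. A retained-intron transcript was annotated for 6781 of them and not for 5531. Of the 19 tested members with a decay target, 4 rose and 4 fell, where 10.3% of all such protein-coding genes rose and 22.0% fell. Of the 37 without, 9 rose and 2 fell, where 13.6% and 22.1% of all did. Of the 40 with a retained-intron transcript, 11 rose and 4 fell, beside 12.7% and 17.8% of all such genes, and of the 16 without, 2 rose and 2 fell, beside 12.6% and 27.3%. FPKM sums all transcripts of a gene, so the share of each could not be given.

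The order of the control levels was led by *Lsm4* (136 FPKM), *Snrpb* (120 FPKM) and *Snrpd1* (102 FPKM) and ended with *Prpf39* (8.09 FPKM), *Lsm11* (3.74 FPKM), *Snrpn* (1.78 FPKM) and *U2af1l4* (0.162 FPKM). Of the 56 pairs of neighbours in this order, 45 had overlapping control libraries and 11 were apart. The gene length in the table equalled the union of all annotated exons for 54 of the 57 members, and the longest coding transcript of *Snrpc* held only 15.5% of that length, so levels between genes depend on this choice. Through the pseudocount, the fold changes of genes with low FPKM depend on it too. Copies in other genes were few for most members, since for 48 of them at least 90% of the stretches of 100 bases were their own, and more than 10% of exon bases overlapped other genes in 6 (*Snrpf*, *U2af1l4*, *Snrpn*, *Prpf31*, *Sf3a2* and *Snrpa*).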

How the data were processed

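RNA-seq of 3 control and 3 *Srsf1* cKO libraries of STRA8+ cells was grouped by the genotype and title in the labels. The authors deposited FPKM for 54532 genes in 1 table, with the gene lengths used. The submitters' processing notes name HISAT2 2.0.5 and mm10, and the counting tool, its strand setting and the annotation are not given in the sources used here. Fragments per gene were recovered from FPKM and gene length, and all values were whole to within 0.05 fragment. The deposited scaling differed from the sum of fragments by 0.971 to 1.05 times. Pairs of libraries within a group differed by more than sampling noise (chi-square per degree of freedom 25.6 and 23.4 between control replicate 2 and the other controls, 6.50 between control replicates 1 and 3, and 7.80 to 17.2 among cKO libraries), so none was treated as a repeated deposit of another. Whether they are biological or technical replicates is not given.

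The 15451 genes whose FPKM averaged at least 1 across the 6 libraries were tested as log2(FPKM + 1), with a pseudocount of 1, in a two-sided limma fit (limma 3.58.1, R 4.3.3, moderated with a trend on intensity) with no covariate. The p-values were Benjamini-Hochberg adjusted over all genes with a threshold of 0.05, and log2 fold changes are cKO against control on that scale, which understates the change of low genes. The computation was tested on simulated data. Their spread was set and not taken from these libraries, so this checks the code and not the calls made here. Alternatives were a pseudocount of 0.1, no filter or a mean of at least 5 FPKM, median-of-ratios scaling, quantile normalisation, no trend, the replicate number as a block, limma-voom on the recovered fragments, each library left out in turn, and, added after the data were seen, FPKM over the sum of fragments. Single-library counting error was not given because replicates were available.

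The members and lists were chosen with earlier results of these data known. Full statistics were given for *Srsf1*, the 12 members with the largest change among those past the threshold and the tested members of 5 paralog pairs, and all members past the threshold were given by library. Of the members tested, 1 is not reported here beyond the counts and sums. For a few other members the adjusted p or confidence interval is given as well. Of the other spliceosome genes, the 3 largest rises and 3 largest falls were named. Promoters were the 250 bases before RefSeq starts (GRCm38.p6), and gene models were from GENCODE M21.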

Additional observations from a re-analysis of the deposited data

How the results depend on the processing

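Over 15 alternatives, 6 of the 19 calls held in all (*Lsm7*, *Prpf3*, *Lsm14a*, *Prpf6*, *Snrpd3* and *Sf3b3*), *Sf3b1* was lost only with the replicate block, *Snrnp200* and *Lsm12* were kept in no fit that left out a library, and none of the 19 changed sign. Members that rose numbered 26 under quantile normalisation, 7 without the trend and 5 with the replicate block, against 13, and 6 to 15 with a library left out. Members that fell numbered 1 under quantile normalisation and 1 with the block, against 6, and 1 to 6 with a library left out. These fits had 1 library fewer. Over all genes, rises numbered 5164 under quantile normalisation, 891 with the block and 969 to 1767 with a library left out, and falls 1950 at a mean of at least 5 FPKM, where 8929 genes were tested. Falls over all genes numbered 2527 under quantile normalisation and 2870 with the block, against 3437. Of the other spliceosome genes, 30 rose under quantile normalisation, 5 with the block, 16 with FPKM over the sum of fragments, and 5 to 8 with a library left out, and 5 to 7 fell. The sign turned for *Prpf38a* (-0.0033 without cKO replicate 2, in a range of -0.0033 to 0.12 with a library left out, and 0.20 under quantile normalisation), which was not past the threshold. The differences of overlapping paralog shares, cKO minus control, turned for *Prpf38b* (from 0.805 percentage points to -0.167 without control replicate 3 and -0.594 without cKO replicate 1), for *Snrpn* (from 0.189 to -0.0244 without control replicate 1) and for *U2af1l4* (from 0.0812 to -0.0613 without cKO replicate 1). Unless the construction is named, the cause was not tested.

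Libraries with the same number did not deviate together (correlations -0.0014, -0.11 and 0.016), so the numbers name the libraries and do not pair them, and a call lost with the block is no sign of a smaller change. *U2af1l4*, with 3 to 12 fragments per library, was under the filter.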

Other observations

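*Snrpert*, the processed pseudogene that the name rule would have taken, was at 20.5, 20.3 and 25.3 FPKM in control and 22.4, 21.1 and 22.6 FPKM in cKO libraries, with overlapping groups. *Snurf*, annotated over the *Snrpn* exons, was listed at 0 in all 6 libraries, and *BC024978*, which overlaps 11.03% of the *Snrpa* exon bases, fell from 4.03, 3.57 and 3.27 FPKM to 2.43, 2.11 and 2.20 FPKM (limma adjusted p = 0.0157).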
